A study of Homo sapiens with 24 samples.

Results

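Long non-coding genes that carry small nucleolar RNAs (snoRNAs) in their introns were examined for Myc binding in MIA PaCa-2 cells, an established human pancreatic carcinoma line. The genes were all RefSeq lncRNA genes of the human reference whose symbol is SNHG (snoRNA host gene) followed by a number, plus GAS5, ZFAS1 and DANCR. They numbered 32 among 18303 annotated lncRNA genes and 59679 genes of all kinds on chromosomes 1 to 22, X and Y. The rule for membership reads gene symbols only. Both cell populations used here carried a Tet-On construct that expresses MED30, a subunit of the Mediator complex, when doxycycline is given. The labels do not say whether the line is 1 clone. One was kept without doxycycline and the other is titled as day 5 of doxycycline, whereas the protocol shared by all samples speaks of 2 days. The assay was CUT&Tag on lightly fixed cells: an antibody against Myc brings in a transposase that cuts nearby DNA and adds sequencing adapters. Each condition had 1 Myc library out of 24 samples in the series, and the other 22, a Myc library at day 1 and control IgG libraries among them, were not analysed here.

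With 1 library per condition there is no replicate spread and no test between conditions, and each difference below is one between these 2 libraries. A gene is called listed when a peak of the authors' list reaches within 1 kb of either end of its RefSeq span. The lists held 3559 peaks without doxycycline and 6953 at day 5. The strength of a peak is given as the number of fragments over its summit, recovered from the deposited fold and p-value, with an exact 95% Poisson interval in parentheses after it. These intervals cover counting error only. Peaks that a control IgG library would also give were not removed, and peaks of Myc binding do not measure transcription.

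SnoRNAs guide the chemical modification of ribosomal RNA in the nucleolus. Those of the box C/D class (SNORD genes) direct ribose methylation, those of the box H/ACA class (SNORA genes) direct pseudouridylation, and their relatives in Cajal bodies (SCARNA genes) act on spliceosomal RNAs. Most human snoRNAs are cut out of introns, and a host gene of the SNHG kind makes a spliced RNA with little coding potential, often degraded by nonsense-mediated decay. Myc is known for driving ribosome production, of which snoRNA supply is a part. RefSeq placed 153 snoRNA and scaRNA genes inside the 32 spans, 84 of them in SNHG14 alone and 69 in the rest. Box C/D genes lay in 15 spans, box H/ACA genes in 13 and scaRNA genes in 4. GAS5 and SNHG12 held both of the first kinds, SNHG28 held only an unnamed snoRNA gene, and SNHG27 held none. The spans ran from 340 bp (SNHG25) to 595855 bp (SNHG14), with a median of 5672 bp.

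Myc peaks stood at many of these genes in both libraries. Without doxycycline 14 of 32 were listed (43.8%, exact binomial interval 26.4 to 62.3), against 4.35% of all lncRNA genes and 14.4% of all protein-coding genes. At day 5, 21 were listed (65.6%, 46.8 to 81.4), against 8.27% and 27.4%. Listed in both libraries were 13 genes, where 3.80% of all lncRNA genes were: GAS5, SNHG1, SNHG5, SNHG8, SNHG10, SNHG15, SNHG16, SNHG17, SNHG22, SNHG25, SNHG26, SNHG29 and SNHG30. Another 8 were listed at day 5 only (4.46% of all lncRNA genes): ZFAS1, SNHG4, SNHG6, SNHG7, SNHG12, SNHG20, SNHG31 and DANCR. SNHG3 was the single gene listed without doxycycline only (0.546% of all lncRNA genes), and 10 were in neither list. In all 22 genes were listed in at least 1 library, beside 8.81% of lncRNA genes and 28.9% of protein-coding genes, of which 1.57% were listed without doxycycline only. The interval treats genes as independent draws, and the comparison genes were not matched for activity, so the difference from other lncRNA genes is a description of these lists.

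Of the genes listed at day 5, 8 of 21 (38.1%) had no peak in the other library, beside 54.0% of the 1513 lncRNA genes and 53.0% of the 5486 protein-coding genes listed at day 5. The day 5 list is the longer one. When it was limited to its 3559 highest-ranked peaks, as many as the other list holds, 14 of the 32 genes were listed at day 5 as well, beside 4.78% of all lncRNA genes. Then 4 of these 14 were listed only at day 5 (ZFAS1, SNHG4, SNHG7 and SNHG31). So were 315 of the 874 lncRNA genes then listed at day 5, which is 1.72% of all lncRNA genes. Of the 14 listed without doxycycline, 4 were listed only there (SNHG3, SNHG8, SNHG16 and SNHG30). So were 237 of the 796 lncRNA genes listed without doxycycline, 1.29% of all lncRNA genes.

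**Figure D1:**
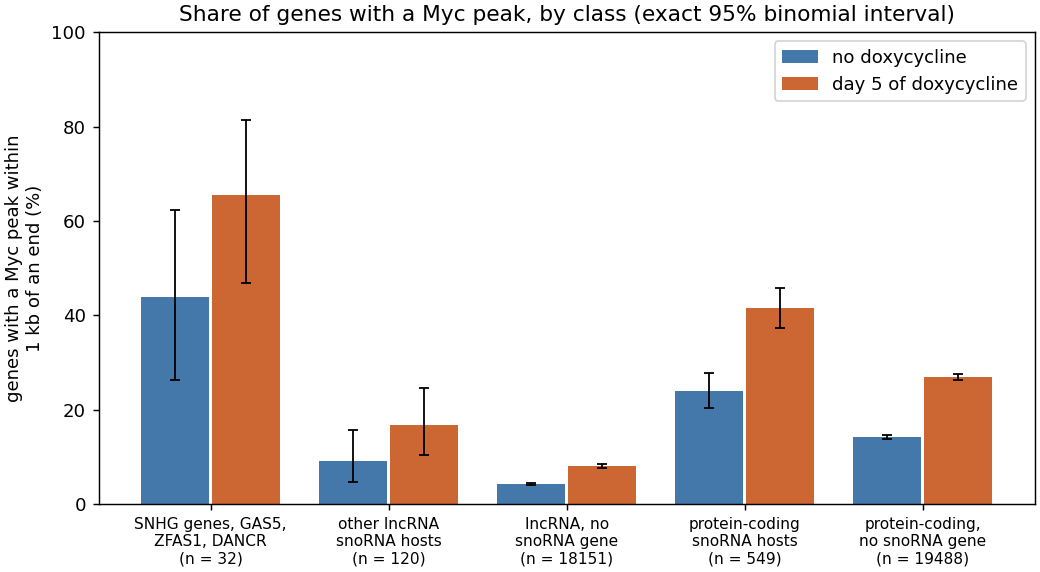
Bars give the percentage of genes in each class that were listed for Myc, without doxycycline (blue) and at day 5 (orange), with exact 95% binomial intervals as black lines and the number of genes under each class. The 32 snoRNA host lncRNA genes stand at 43.8% and 65.6%, and lncRNA genes without a snoRNA gene at 4.25% and 8.11%.

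Host genes outside the SNHG family gave intermediate shares when all peaks were counted. Hosts were marked by span alone, with strand not read, so the same snoRNA gene can count for several genes. The same peak can also count in more than 1 class. The coding spans of MATR3, MCMDC2 and LOC124900276 enclose those of SNHG4, SNHG6 and SNHG7, and each pair shares a day 5 peak. A snoRNA or scaRNA gene lay inside 120 other lncRNA genes, of which 9.17% (4.67 to 15.8) were listed without doxycycline and 16.7% (10.5 to 24.6) at day 5. Among 549 protein-coding genes with such a gene inside, 23.9% (20.4 to 27.7) and 41.5% (37.4 to 45.8) were listed, against 14.2% and 27% of the coding genes without one. The SNHG group was thus listed more often than either other host class. Its intervals were apart from those of the other lncRNA hosts in both libraries. They were apart from those of the coding hosts only at day 5, by bounds of 46.8 and 45.8. With equal numbers of peaks the last of these ends, since the group then stood at 43.8% (26.4 to 62.3) at day 5 and the coding hosts at 27.9% (24.2 to 31.8). Without any coding end near, 2.50% of the other lncRNA hosts had a peak in each library. Of lncRNA genes without a snoRNA gene, 1.37% and 2.55% had such a peak. Span lengths differ between these classes, with medians of 42003 bp for the other lncRNA hosts and 76985 bp for the coding hosts, and their part in the shares was not tested. The coding hosts with the highest-ranked day 5 peaks were AIMP2, a scaffold protein of the tRNA synthetase complex, with 49 fragments in the library without doxycycline and 60 in the other, and HSPA9, the mitochondrial Hsp70, with 54 and 57. Next came NCL, nucleolin, with 45 and 53, SEC31A, a coat protein of secretory vesicles, with 19 and 42, and DKC1, the pseudouridine synthase of H/ACA particles, with 25 and 53. The leading other lncRNA host, THAP9-AS1, had the same peak as SEC31A, and both spans hold SNORD143 and SNORD144. THAP9-AS1 was followed by CA5BP1-CA5B (34 and 40), WARS2-AS1 (21 and 32), LOC124901081 (9 and 25), whose span holds the same snoRNA genes as SNHG4, and EEF1E1-BLOC1S5 (6 and 21).

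RefSeq promoter windows, from 250 bases before to 50 after an annotated start, were at hand for 28 of the 32 genes (GRCh38.p14, the hg38 assembly). Those of SNHG6, SNHG9, SNHG15 and SNHG25 were not among them. Shown are the windows that the results on binding and motifs turn on. SNHG30 (chr17:35567864-35568163, plus strand) and SNHG7 (chr9:136728135-136728434, minus) hold the CACGTG hexamer, the E-box to which Myc and Max bind. ZFAS1 (chr20:49278392-49278691, plus) is the strongest gene listed at day 5 only and SNHG3 (chr1:28505693-28505992, plus) the one listed without doxycycline only. SNHG19 (chr16:2155309-2155608, minus) has no Myc peak, and SNHG5 (chr6:85678684-85678983, minus), added after its values were seen, has the highest-ranked day 5 peak among the genes with a window that are listed in both libraries. Each is printed 5′ to 3′. Capitals mark CACGTG, its variant CACGCG on either strand, TATAAA at 25 to 35 bases before the start, and a run of at least 5 pyrimidines that opens with C at the start itself.
SNHG30: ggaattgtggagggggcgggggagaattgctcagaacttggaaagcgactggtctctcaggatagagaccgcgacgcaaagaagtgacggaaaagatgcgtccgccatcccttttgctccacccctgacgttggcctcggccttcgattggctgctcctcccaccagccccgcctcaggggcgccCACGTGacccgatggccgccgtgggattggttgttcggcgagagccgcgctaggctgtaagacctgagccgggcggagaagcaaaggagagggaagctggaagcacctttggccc
SNHG7: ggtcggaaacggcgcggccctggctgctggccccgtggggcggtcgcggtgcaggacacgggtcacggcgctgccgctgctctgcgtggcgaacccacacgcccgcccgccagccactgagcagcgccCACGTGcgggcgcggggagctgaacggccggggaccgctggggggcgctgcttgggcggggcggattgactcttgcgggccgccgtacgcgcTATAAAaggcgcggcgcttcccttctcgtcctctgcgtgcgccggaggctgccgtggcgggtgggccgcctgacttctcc
ZFAS1: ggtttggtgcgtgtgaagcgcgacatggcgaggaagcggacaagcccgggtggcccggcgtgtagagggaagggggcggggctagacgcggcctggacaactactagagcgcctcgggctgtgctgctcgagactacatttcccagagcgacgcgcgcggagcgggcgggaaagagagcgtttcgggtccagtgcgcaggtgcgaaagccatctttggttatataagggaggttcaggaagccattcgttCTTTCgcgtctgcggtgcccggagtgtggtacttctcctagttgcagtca
SNHG3: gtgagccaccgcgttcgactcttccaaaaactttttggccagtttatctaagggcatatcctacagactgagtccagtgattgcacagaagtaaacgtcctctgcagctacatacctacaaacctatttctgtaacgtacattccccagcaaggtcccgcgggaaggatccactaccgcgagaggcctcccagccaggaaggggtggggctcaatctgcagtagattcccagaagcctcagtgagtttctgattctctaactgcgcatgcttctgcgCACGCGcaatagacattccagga
SNHG19: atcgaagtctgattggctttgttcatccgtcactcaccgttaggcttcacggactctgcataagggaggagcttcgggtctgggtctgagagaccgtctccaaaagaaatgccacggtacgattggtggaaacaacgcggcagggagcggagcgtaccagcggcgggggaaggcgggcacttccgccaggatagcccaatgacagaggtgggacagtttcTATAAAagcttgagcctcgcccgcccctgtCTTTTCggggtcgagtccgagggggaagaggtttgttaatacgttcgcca
SNHG5: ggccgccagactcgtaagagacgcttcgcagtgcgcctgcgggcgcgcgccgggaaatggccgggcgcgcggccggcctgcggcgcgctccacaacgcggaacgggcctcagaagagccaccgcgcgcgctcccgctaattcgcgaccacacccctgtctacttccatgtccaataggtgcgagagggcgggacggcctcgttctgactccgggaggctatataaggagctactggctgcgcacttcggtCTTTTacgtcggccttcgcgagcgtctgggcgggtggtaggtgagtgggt

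The strongest Myc peak of the group stood at SNHG15, host of the H/ACA snoRNA SNORA9. SNHG15 spans 44983023 to 44986696 on chromosome 7 in hg38, and its peak lay at 44986196 to 44986998 without doxycycline and 44986074 to 44987049 at day 5. The summit held 67 fragments (51.9 to 85.1) without doxycycline and 116 (95.9 to 139) at day 5, and these intervals are apart. By the authors' −log10 q it ranked 24 of 3559 peaks and 8 of 6953. Among peaks at the ends of lncRNA genes it took place 6 of 768 without doxycycline and place 1 of 1456 at day 5. No end of a protein-coding gene lay within 1 kb of it.

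Among the genes listed in both libraries, SNHG5, a box C/D host, had the next strongest peak at day 5, and GAS5 without doxycycline. SNHG5 (chromosome 6, 85677007 to 85678733) carries SNORD50A and SNORD50B, and its peak had 20 fragments (12.2 to 30.9) without doxycycline and 49 (36.3 to 64.8) at day 5. Its intervals did not overlap either, and its rank went from 466 to 71, in lists of unequal length. GAS5, named for its rise in growth-arrested cells and host of 10 box C/D snoRNA genes and SNORA103, had 32 (21.9 to 45.2) and 41 (29.4 to 55.6), which overlap. SNHG26, host of SNORD93, had 24 (15.4 to 35.7) and 39 (27.7 to 53.3). SNHG29, host of SNORD49A, SNORD49B and SNORD65, had 20 (12.2 to 30.9) and 28 (18.6 to 40.5). In both of these the day 5 value was the higher and the intervals overlapped.

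SNHG1, which holds 8 SNORD genes in a span of 3908 bp, had 15 fragments (8.40 to 24.7) without doxycycline and 24 (15.4 to 35.7) at day 5. SNHG25, the shortest of the group with SNORD104 inside, had 13 (6.92 to 22.2) and 23 (14.6 to 34.5). SNHG16, host of SNORD1A, SNORD1B and SNORD1C, had 12 (6.20 to 21.0) and 14 (7.65 to 23.5). All 3 pairs of intervals overlapped. SNHG30, host of SNORD7, was the only gene of the 13 with fewer fragments at day 5, 16 (9.15 to 26.0) and then 9 (4.12 to 17.1), again with overlapping intervals. Its rank went from 450 of 3559 peaks to 4792 of 6953.

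Hosts of H/ACA snoRNAs listed in both libraries were fewer. Beside SNHG15 and GAS5 they were SNHG17, with 4 genes of the SNORA71 family, and SNHG8, with SNORA24. SNHG17 had 23 fragments (14.6 to 34.5) in each library. SNHG8 had 8 (3.45 to 15.8) and 9 (4.12 to 17.1), among the weakest values of the group. Of the scaRNA hosts, SNHG10, with SCARNA13, had 10 (4.80 to 18.4) and 22 (13.8 to 33.3). SNHG22, with SCARNA17, had 6 (2.20 to 13.1) and 15 (8.40 to 24.7). The day 5 value was the higher in both scaRNA hosts, and in both the intervals overlapped.

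**Figure D2:**
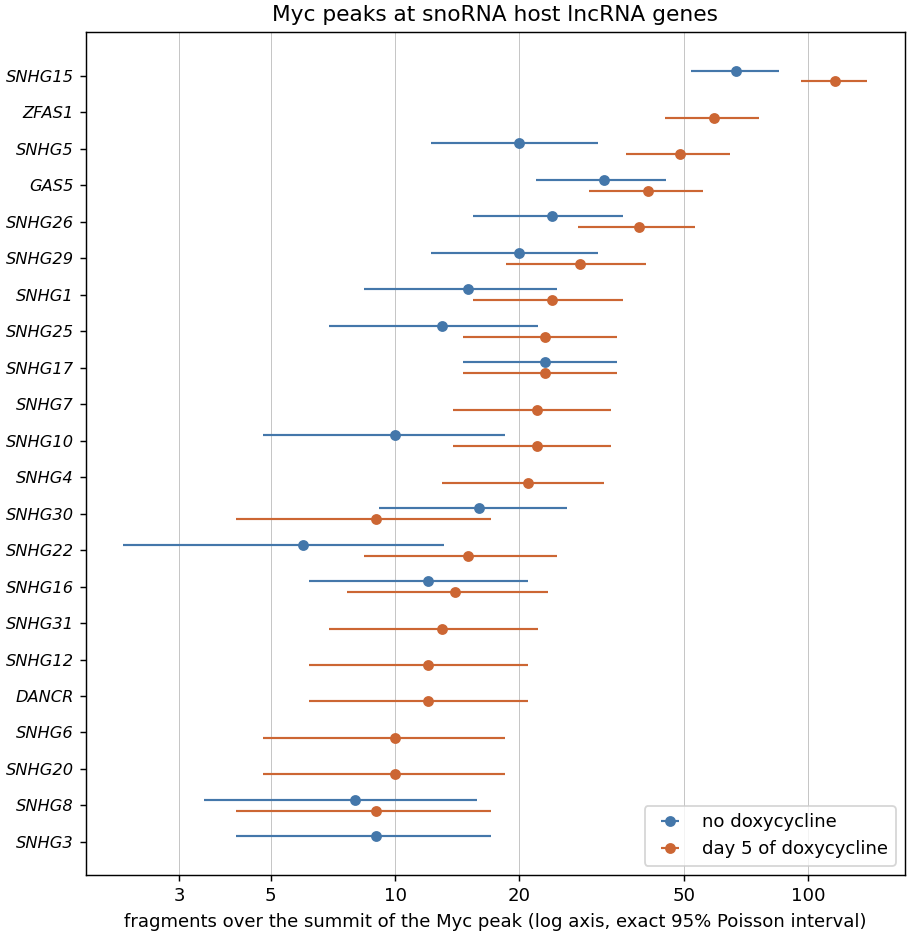
Points give the fragments over the summit of the Myc peak at each listed gene on a log axis, without doxycycline (blue) and at day 5 (orange), with exact 95% Poisson intervals as lines; a missing point means no listed peak. SNHG15 stands highest with 67 and 116 fragments, and its intervals and those of SNHG5 do not overlap between the libraries.

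ZFAS1 was the strongest of the genes listed at day 5 only. ZFAS1 (chromosome 20, 49278178 to 49289260) hosts SNORD12, SNORD12B and SNORD12C and starts beside ZNFX1, which is transcribed from the other strand. Its peak at 49278069 to 49278656 held 59 fragments (44.9 to 76.1) and ranked 54 of 6953, while the nearest summit without doxycycline was 59.2 kb from an end. SNHG7, with SNORA17A and SNORA17B, had 22 fragments (13.8 to 33.3), and SNHG4, with SNORA74A and SNORA74D, had 21 (13.0 to 32.1). In fragments, the other 5 were close to the median of 12 over all day 5 peaks. By −log10 q, SNHG31 stood at 39.1% from the top of the list, DANCR at 56.2% and SNHG6 at 60.7%. Lower still were SNHG20 at 76.0% and SNHG12 at 79.4%. SNHG31, with SNORA70I, had 13 fragments (6.92 to 22.2), SNHG12, with SNORD99 and 3 SNORA genes, and DANCR, with SNORA26, had 12 each (6.20 to 21.0), and SNHG6, with SNORD87, and SNHG20, with SCARNA16, had 10 each (4.80 to 18.4). The median of the 8 was 12.5 fragments, beside a day 5 median of 23.0 for the 13 genes listed in both. For a gene that is not listed, no peak passed the authors' threshold, and binding below it cannot be told from none.

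The day 5 peak of DANCR, at 52712452 to 52712974 on chromosome 4, also covers the mature microRNA that RefSeq places in this span, hsa-miR-4449 at 52712720 to 52712741. Its sequence is shown because it lies under the peak, with the seed (bases 2 to 8) in capitals.
hsa-miR-4449: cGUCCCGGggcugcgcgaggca

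SNHG3, host of SNORA73A and SNORA73B, differed from the rest in where its peak lay. The peak without doxycycline (chromosome 1, 28510632 to 28511137) had its summit 4715 bp from the start of the span and 234 bp from its far end. It held 9 fragments (4.12 to 17.1) and ranked 3454 of 3559. It is among the weakest peaks of that list, and leaving out peaks with a −log10 q under 3 left no gene listed without doxycycline only.

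No peak within 1 kb of an end was listed in either library for SNHG9, SNHG11, SNHG14, SNHG18, SNHG19, SNHG21, SNHG27, SNHG28, SNHG32 and SNHG33. SNHG14 is the imprinted host of the SNORD115 and SNORD116 clusters, and no peak touched any part of its 595855 bp. No peak touched the span of the other 9 either. The nearest summit to an end lay at a median of 378 kb without doxycycline and 126 kb at day 5. The closest was at SNHG11, host of SNORA60 and SNORA71E, with summits 11.5 and 11.3 kb away at its neighbour SNHG17. SNHG9 (host of SNORA78) and SNHG19 (SNORD60) lie on chromosome 16 with the nearest summits 44.5 and 50.1 kb away at day 5. The remaining hosts were SNHG18 (SNORD123), SNHG21 (SCARNA15) and SNHG33 (SNORA63D and SNORA63E). SNHG32, host of SNORD48 and SNORD52, lies in the major histocompatibility region of chromosome 6, where alternate haplotypes also drew peaks that were not assigned to any gene.

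By class of hosted RNA, 8 of the 15 genes with a SNORD gene inside were listed without doxycycline and 11 at day 5. Of the 13 with a SNORA gene 5 and 9 were listed, and of the 4 with a SCARNA gene 2 and 3. The day 5 shares are close to one another at these small numbers. SNHG27 and SNHG28, which hold no named snoRNA gene, were listed in neither library. Spans under 12 kb were listed in 11 and 17 of 25 cases, longer spans in 3 and 4 of 7.

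Most of the 13 genes listed in both libraries had more fragments at day 5, as did most peaks shared by the lists. Over all 2853 shared peak pairs (overlap of at least 1 bp), the 13 included, the day 5 summit held a median of 1.43 times the fragments (quartiles 1.12 and 1.78). Over the 13 genes the median was 1.60 (1.17 and 1.77). More fragments at day 5 were found at 11 of 13 genes (84.6%) and at 80.5% of all pairs. SNHG22 (2.50, exact interval 0.917 to 7.86), SNHG5 (2.45, 1.43 to 4.35) and SNHG10 (2.20, 1.000 to 5.20) had the highest ratios. The lower bound of SNHG5 equals the median of all pairs to 3 digits. SNHG30 had the lowest (0.562, 0.219 to 1.35), and 99.3% of all pairs had a higher ratio. The SNHG30 interval includes equal numbers, but its upper bound is below the median of all pairs, 1.43. Intervals lay apart with more fragments at day 5 for 2 of 13 genes (15.4%), SNHG5 and SNHG15, and for 3.75% of all pairs. Intervals separate more readily at high numbers, and median fragments were 16 and 23 for the 13 genes but 12 and 17 for all pairs. A higher ratio than that of SNHG15 (1.73) was found in 28.1% of all pairs, and than that of SNHG5 in 6.03%. Without the total reads of each library, depth and binding cannot be told apart in these ratios.

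**Figure D3:**
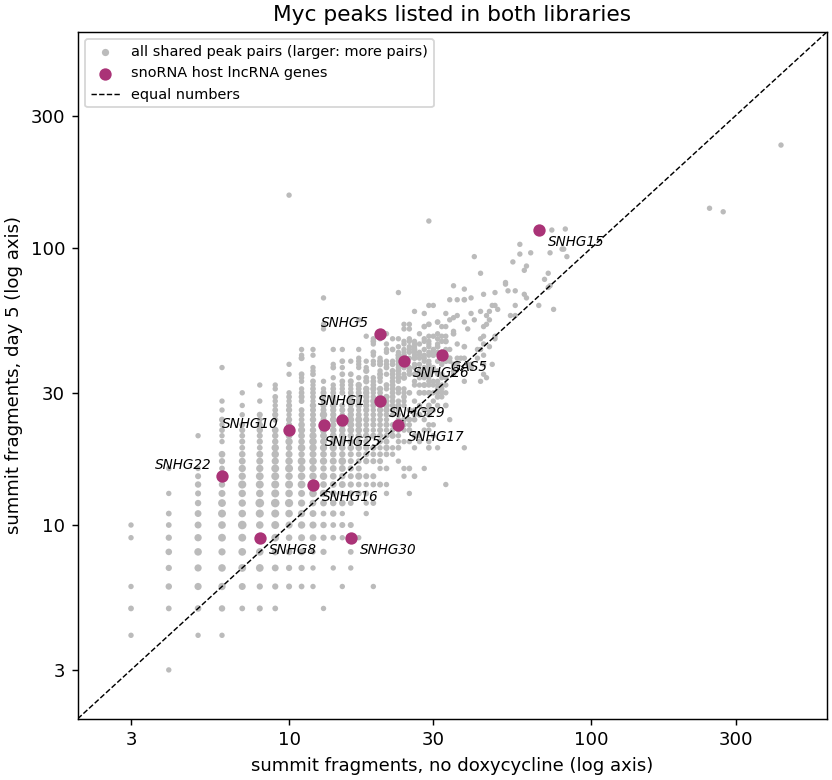
Each point is a Myc peak listed in both libraries, with its summit fragments without doxycycline on the horizontal axis and at day 5 on the vertical axis, both log scaled. Grey points are all 2853 pairs, purple points the 13 snoRNA host lncRNA genes, and the dashed line marks equal numbers; SNHG15 lies among the strongest pairs and SNHG30 is the only purple point below the line.

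Peaks at these genes ranked higher in each list than a typical peak. The median peak of the group held 15.5 fragments without doxycycline and 22 at day 5, where peaks at the ends of any lncRNA gene held 11 and 13. In rank, the median peak of the group stood at 23.3% and 25.8% from the top of its list, and lncRNA end peaks at 48.1% and 44.6%. The range within the group was wide, from 6 to 67 fragments without doxycycline and from 9 to 116 at day 5. Each listed gene had 1 peak per library, and no 2 genes shared one.

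Most summits lay near the annotated start where the strand was known. Listing itself requires a peak within 1 kb of either end, so a summit near an end follows largely from the rule. Of 18 such genes at day 5, the summit was within 500 bp of the start of the span in 15 (83.3%), with 9 upstream and 9 inside the gene. The annotated start behind the promoter windows of SNHG12 and ZFAS1 lies inside the span, so that their summits lie 731 and 210 bp inside the span but at -379 and -254 bp from that annotated start, which is upstream of it. Counted from the annotated start behind each window, a setting added after seeing the data, 16 of 18 lay within 500 bp, 11 upstream and 7 inside. Counted from the start of the span, the share was 72.2% for other listed lncRNA genes and 79.9% for listed protein-coding genes, beside the 83.3% of the group. For those other genes no share was counted from the annotated start. From the start of the span, SNHG12, GAS5 and SNHG7 were the 3 beyond 500 bp. At GAS5 the summits lay 1047 bp (no doxycycline) and 749 bp (day 5) inside its span, 84 and 214 bp from an end of ZBTB37, and the peaks covered the SNORD74 gene. When the summit itself had to lie within 1 kb, GAS5 was no longer listed without doxycycline. At SNHG25 the peaks covered SNORD104.

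**Figure D4:**
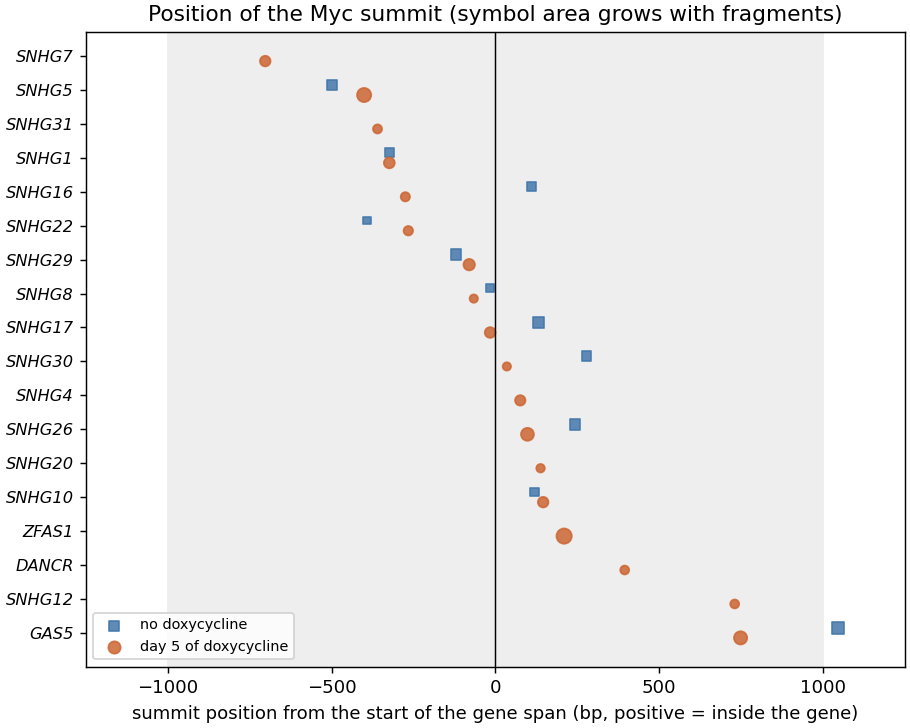
The horizontal axis gives the position of the Myc summit from the start of the gene span in bp, positive inside the gene, for the 18 genes with a known strand that are listed at day 5; squares are the library without doxycycline, circles day 5, and symbol area grows with summit fragments. The grey band marks 1 kb on either side. The day 5 summits run from 703 bp upstream at SNHG7 to 749 bp inside at GAS5.

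Many of these peaks also lay beside a protein-coding gene. At 12 of the 22 listed genes an end of a coding gene came within 1 kb of the peak in at least 1 library. Throughout, either end of a coding span counted, and its start was not told apart from its far end. The neighbours were ZBTB37 at GAS5, BARD1 at SNHG31, PRSS12 at SNHG8, MATR3 at SNHG4, MCMDC2 at SNHG6 and LOC124900276 at SNHG7. The others were SLC3A2 at SNHG1, GLRX5 at SNHG10, TEX2 at SNHG25, SEC14L1 at SNHG20, ACAA2 at SNHG22 and ZNFX1 at ZFAS1. The day 5 summit was nearer the coding end in 5 of 10 such cases, nearer the lncRNA end in 3 and equally near in 2, SNHG4 and SNHG7, which share an annotated end with their neighbour. At SLC3A2, the heavy chain of amino acid transporters, the summits lay 100 bp from its end and 324 bp from that of SNHG1. At ZFAS1 the summit lay 210 bp from its own end and 331 bp from that of ZNFX1. Which of the genes such a peak serves cannot be told from a peak list.

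Without any coding end near, 8 of the 32 genes (25%) still had a peak without doxycycline and 11 (34.4%) at day 5, beside 1.38% and 2.55% of the other lncRNA genes. The 7 with such a peak in both libraries were SNHG5, SNHG15, SNHG16, SNHG17, SNHG26, SNHG29 and SNHG30. Among listed genes, a coding end was near in 47.6% of the group at day 5 and in 68.8% of the other lncRNA genes.

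The canonical E-box was not frequent in these promoters. CACGTG, which reads the same on both strands, was present in the windows of 2 of 28 genes (7.14%), SNHG30 and SNHG7, beside 8.77% of all 27305 genes with a window and 5.84% of lncRNA genes. Over all genes it was present in 14.9% of those listed at day 5 and 7.11% of those not listed, and in 10.7% of listed lncRNA genes. In the group it was present in 11.1% of the 18 genes with a window that were listed at day 5. The day 5 peak overlapped the window in 16 of these 18, but not at GAS5 and DANCR. At SNHG30 the hexamer stood 65 bases before the start, inside the day 5 peak and 98 bp from its summit, but outside the narrower peak without doxycycline. At SNHG7 it stood 122 bases before the start, outside the peak and 584 bp from its summit. The variant CACGCG, searched for on both strands, was in 8 of 28 windows (28.6%) beside 13.5% of all genes: SNHG1, SNHG3, SNHG12, SNHG16, SNHG21, SNHG26, SNHG28 and SNHG29. Among genes listed at day 5, CACGCG was in 27.8% of the group, 24.7% of all genes and 21.7% of lncRNA genes. The median GC content of the windows was 62.5% in the group and 49.8% in lncRNA genes. For genes listed at day 5 it was 63.0% in the group and 65.3% in lncRNA genes. A match is a description of the letters, and a window without one says nothing about Myc.

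Starts of the kind called 5′ terminal oligopyrimidine tracts, a mark of growth-controlled translation genes and of many snoRNA hosts, were also counted. A start that opens with C and runs on for at least 5 pyrimidines, a limit set after the letters were seen, was found in 7 of 28 genes (25%), beside 5.14% of all genes and 3.63% of lncRNA genes. They were SNHG4, SNHG5, SNHG12, SNHG18, SNHG19, SNHG32 and ZFAS1. Of these 7, SNHG4, SNHG5, SNHG12 and ZFAS1 were listed at day 5, and SNHG18, SNHG19 and SNHG32 were in neither list. TATAAA at 25 to 35 bases before the start, also searched for after the letters were seen, was found in SNHG7 and SNHG19 (7.14%, beside 2.75% of all genes).

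Genes for the proteins that bind and process snoRNAs were listed as follows. Of the 4 core proteins of box C/D particles, 2 were listed without doxycycline and 3 at day 5. NOP56 had 16 and 24 fragments, NOP58 17 and 23, FBL, the methyltransferase fibrillarin, 14 at day 5 only, and SNU13 was in neither list. Of the 4 of H/ACA particles, DKC1 was listed in both, and NHP2 (10 fragments) and GAR1 (14) at day 5 only, leaving NOP10. NOP56, NOP58 and DKC1 are hosts of snoRNA genes themselves. Of 10 assembly factors 3 were listed in each library: NOLC1, a nucleolar phosphoprotein, with 18 and 36 fragments, ZNHIT6 with 5 and 8, RUVBL2 with 14 without doxycycline only and RUVBL1 with 14 at day 5 only. Factors of nonsense-mediated decay were looked at gene by gene. SMG9 had 24 and 40 fragments, UPF3A 9 and 24, SMG1 9 and 15, and UPF2 21 and 16. SMG6 (10) and UPF3B (6) were listed at day 5 only, and UPF1, SMG5 and SMG8 in neither list. The counts for the core proteins and assembly factors are to be read beside the 14.4% and 27.4% of all protein-coding genes given above.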

How the data were processed

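Myc CUT&Tag peak lists of 2 libraries, 1 per condition, were used, and samples were grouped by their titles. The authors used MACS2, with Bowtie2, Trim Galore and deepTools, on build hg38, per the submitters' processing notes. For versions, settings and any control in the peak call: not given in the sources used here. Peaks were called per library. The authors deposited, for each peak, a fold (a ratio over local background at the summit), a −log10 p-value, a −log10 q-value (lowest 1.33 in both lists) and a score, the integer part of 10 times the −log10 q-value. Ranks follow −log10 q within a list.

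Summit fragments were recovered as whole numbers from fold = (fragments + 1)/(background + 1) and a Poisson tail for p, within 0.001 in −log10 p, for 99.89% and 99.97% of peaks, and for all 14 and 21 peaks at the genes described. Gene spans came from RefSeq GRCh38.p14, and strand from its promoter table where present. Positions are counted from 1. Shares have exact Clopper-Pearson 95% intervals, fragments exact Poisson ones, and ratios exact conditional binomial ones. Python 3.11.15, numpy 2.4.6, pandas 2.3.3, scipy 1.17.1 and matplotlib 3.10.9 were used, and recovery and marking were tested on simulated data. The simulated folds and p-values came from the same formulas, so recovery there checks the code only. All genes of the group are named, together with neighbours that share their peaks, fixed lists, and the 5 highest-ranked of each other class. Genes, lists and alternatives were chosen with earlier results of these data known. Alternatives were other windows, thresholds, numbers of peaks and overlaps. Leaving out peaks near coding ends, leaving out genes without a snoRNA and counting from the annotated start behind the promoter window were added after seeing the data. One gene of the list for nonsense-mediated decay is not reported here, and no count is given over that list.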

Additional observations from a re-analysis of the deposited data

Results flagged for a closer look

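Peaks on the alternate haplotypes of the major histocompatibility region of chromosome 6 entered no count of genes. There were 30 without doxycycline and 87 at day 5, with no control library used to compare them with. SNHG32 lies in this region on the primary chromosome, where it was in neither list.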

How the results depend on the processing

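No paired analysis was possible because each condition had 1 Myc library. The same 14 and 21 genes were listed with windows of 500 bp and 2500 bp. Using only the higher-ranked peaks of each list, split at its median rank, left 8 genes in both libraries, and equal numbers of peaks left 4 listed at day 5 only. Without peaks near coding ends, added after seeing the data, 8 genes were listed without doxycycline, 11 at day 5, 7 in both and 4 at day 5 only. The share of all lncRNA genes listed without doxycycline was 3.85% with a 500 bp window, 4.99% with 2500 bp, 2.29% with the higher-ranked peaks, 3.74% at a −log10 q of at least 3 and 4.05% by summit. At day 5 it was 7.41%, 9.63%, 4.69%, 7.31% and 7.70% in that order, and 4.78% with equal numbers. Of the other lncRNA snoRNA hosts, the higher-ranked peaks left 2.50% and 8.33%, and equal numbers 8.33% at day 5. Of the protein-coding snoRNA hosts, the higher-ranked peaks left 15.1% and 27.7%, and equal numbers 27.9% at day 5. Fewer peaks give fewer listed genes by construction. CACGTG or CACGCG was in 10 windows, and CACGTG within 100 bases before the start or after it in 1. With peaks at the start of the span only, 11 and 18 of the 28 genes of known strand were listed. Of 116 alternatives in all, 91 stayed within 1.5 times the count or within the interval. Among the 91, 35 took the summit nearest the gene start. These 35 could not differ, since each listed gene had 1 peak per library.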

Other observations

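Among lncRNA genes that are not named as snoRNA hosts, the highest-ranked day 5 peaks stood at LOC105372817, with 41 fragments without doxycycline and 93 at day 5, and ELFN1-AS1, with 58 and 103. FAM85B had 80 and 99, RBM15-AS1 81 and 99, and LINC02449 52 and 75. The RBM15-AS1 peak also lies within 1 kb of a coding gene end, and the others do not.

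Of 19 other genes known for non-coding RNAs, 4 were listed without doxycycline and 7 at day 5, beside 4.35% and 8.27% of all lncRNA genes. RefSeq lists TUG1, one of the 19, as protein-coding. They were MIR22HG (18 and 29 fragments), DLEU1 (17 and 24), CRNDE (13 and 20) and UCA1 (16 and 14), with CYTOR (9), DLEU2 (8) and NORAD (7) at day 5 only. MALAT1, NEAT1, HOTAIR, MEG3, H19, KCNQ1OT1, TUG1, MIAT, OIP5-AS1, LINC-PINT, HOTTIP and MIR17HG, host of a microRNA cluster known as a Myc target, were in neither list. The day 5 share of this list and that of the snoRNA hosts were not tested against each other.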
